A study of Mus musculus with 6 samples.

Results

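The genes described here encode proteins through which the neural cell adhesion molecule NCAM signals: the fibroblast growth factor receptors Fgfr1, Fgfr2 and Fgfr3, the receptor phosphatase Ptpra, the kinases Fyn, Src and Ptk2, the prion protein Prnp, the growth cone protein Gap43 and the cannabinoid receptor Cnr1. They were taken from a list of 10 gene names, and every probe set (a group of short probes for 1 transcript) annotated with exactly 1 of these names was used. This gave 13 probe sets for 9 genes, of 12422 probe sets on the array. No probe set carried Ptk2, the focal adhesion kinase, as its single gene, so it is not analysed here. Of the 13 probe sets, 8 probe sets of 7 genes were bright enough to be tested among 7453 in all, and 5 were too dim, including the only one for Cnr1 and both for Fgfr3.

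RNA came from the total brain of 6 male mice of the C57BL/6J strain, and each brain was measured on its own single-colour Affymetrix array. The knockout group held 3 mice with a constitutive Ncam knockout, so the gene was disrupted in all cells and throughout development, and 3 wild-type mice of the same genetic background formed the control group. Both groups held a pair of 2-month-old mice, numbered 1 and 2, and a single 3-month-old mouse, numbered 3. The values are signal intensities that had a mean of 300.2 over the middle 96% of entries on each array, and the small number of arrays limits the precision.

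As background, NCAM sits in the plasma membrane of neurons and glia and holds neighbouring cells together by binding NCAM on the other cell. It has no enzyme activity of its own. Signals leave it by at least a pair of routes: its fibronectin-type domains bind and activate fibroblast growth factor receptors, and clustering of NCAM in lipid rafts brings in Fyn, which is switched on when a receptor phosphatase removes its inhibitory phosphate and which in turn recruits the focal adhesion kinase. The receptor route can lead through phospholipase C and diacylglycerol lipase to endocannabinoids that act on Cnr1, and both routes promote neurite growth. The comparison asked whether brains that lack NCAM carry different transcript levels of these partners.

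The targeted gene separated the groups. The brightest Ncam1 probe set read 276.2, 208.7 and 327.4 in knockout replicates 1, 2 and 3 and 1346, 1448 and 1216 in the wild-type animals, which is -2.26 ± 0.15 (SE) as a log2 difference (knockout minus wild type, on log2(signal + 16)) with an adjusted p of 0.00076 by limma. A dimmer, less specific Ncam1 probe set had means of 86.3 ± 14.9 and 147.0 ± 7.02 (SD, n = 3), with a log2 difference of -0.68 ± 0.15 that did not pass (limma, adjusted p = 0.416). The remaining Ncam1 probe set was too dim to be tested, with overlapping groups. The sources used here do not state where the deletion lies relative to these probe sets. Neuronal markers, as a check of the labelled tissue, overlapped between the groups, with a summed signal of 7 markers between 23464 and 24229 in knockout and between 23406 and 24699 in wild-type brains. Both younger knockout arrays stood apart in other markers. For 7 cerebellar markers the summed signal was 1523 on the array of knockout replicate 2, while the other 5 arrays ranged from 6960 to 8094. For 6 pituitary markers it was 15624 on the array of knockout replicate 1, while the others ranged from 939.2 to 1341. The 3′ to 5′ signal ratio of the Gapdh control entries, a sign of RNA integrity, was 0.811 to 0.826 in knockout against 0.768 to 0.798 in wild-type brains, without overlap. That of the actin control entries overlapped, at 1.14 to 1.22 and 1.08 to 1.20. Summed signals of 7 oligodendrocyte markers (12275 to 13762 in knockout against 13907 to 14902 in wild-type brains) and of 7 astrocyte markers (11854 to 12761 against 12959 to 13332) did not overlap between the groups, and no marker of these lists was at 0. Of the oligodendrocyte markers 5 of 7 had lower means in knockout brains, of the astrocyte markers 5 of 7, of the cerebellar markers 7 of 7, and of the pituitary markers 6 of 6 had higher means. The astrocyte markers did not move together: 2 lay lower in knockout brains without overlap and 1, Gja1, lay higher without overlap. Aldoc, the brightest of them, overlapped between the groups. The part of these differences in the results below was not tested, except that results are also given without the arrays concerned. In RNA from whole brain, fewer cells of a type and less RNA per cell cannot be told apart.

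No member passed the test between genotypes. Of the 8 tested probe sets 0 had an adjusted p under 0.05, and 0 had an unadjusted p under 0.05 in limma, where the lowest adjusted p was 0.743. Over all tested probe sets 0.0268% passed after adjustment, while 3.68% lay below and 3.26% above wild type at an unadjusted p under 0.05. Of the members 5 had lower and 3 higher means in knockout brains, with a median log2 difference of -0.02 against 0.00 over all tested probe sets. For 1 of 8 the knockout and wild-type signals did not overlap, which was lower in knockout brains, where 6.80% of all tested probe sets were lower and 6.08% higher without overlap. Leaving out both knockout arrays that stood apart in markers left 1 knockout array, of the 3-month-old animal, against 3 wild-type arrays of both ages. The median log2 difference of the members was then 0.004. With 1 knockout animal, that fit cannot show whether the arrays left out mattered.

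**Figure D1:**
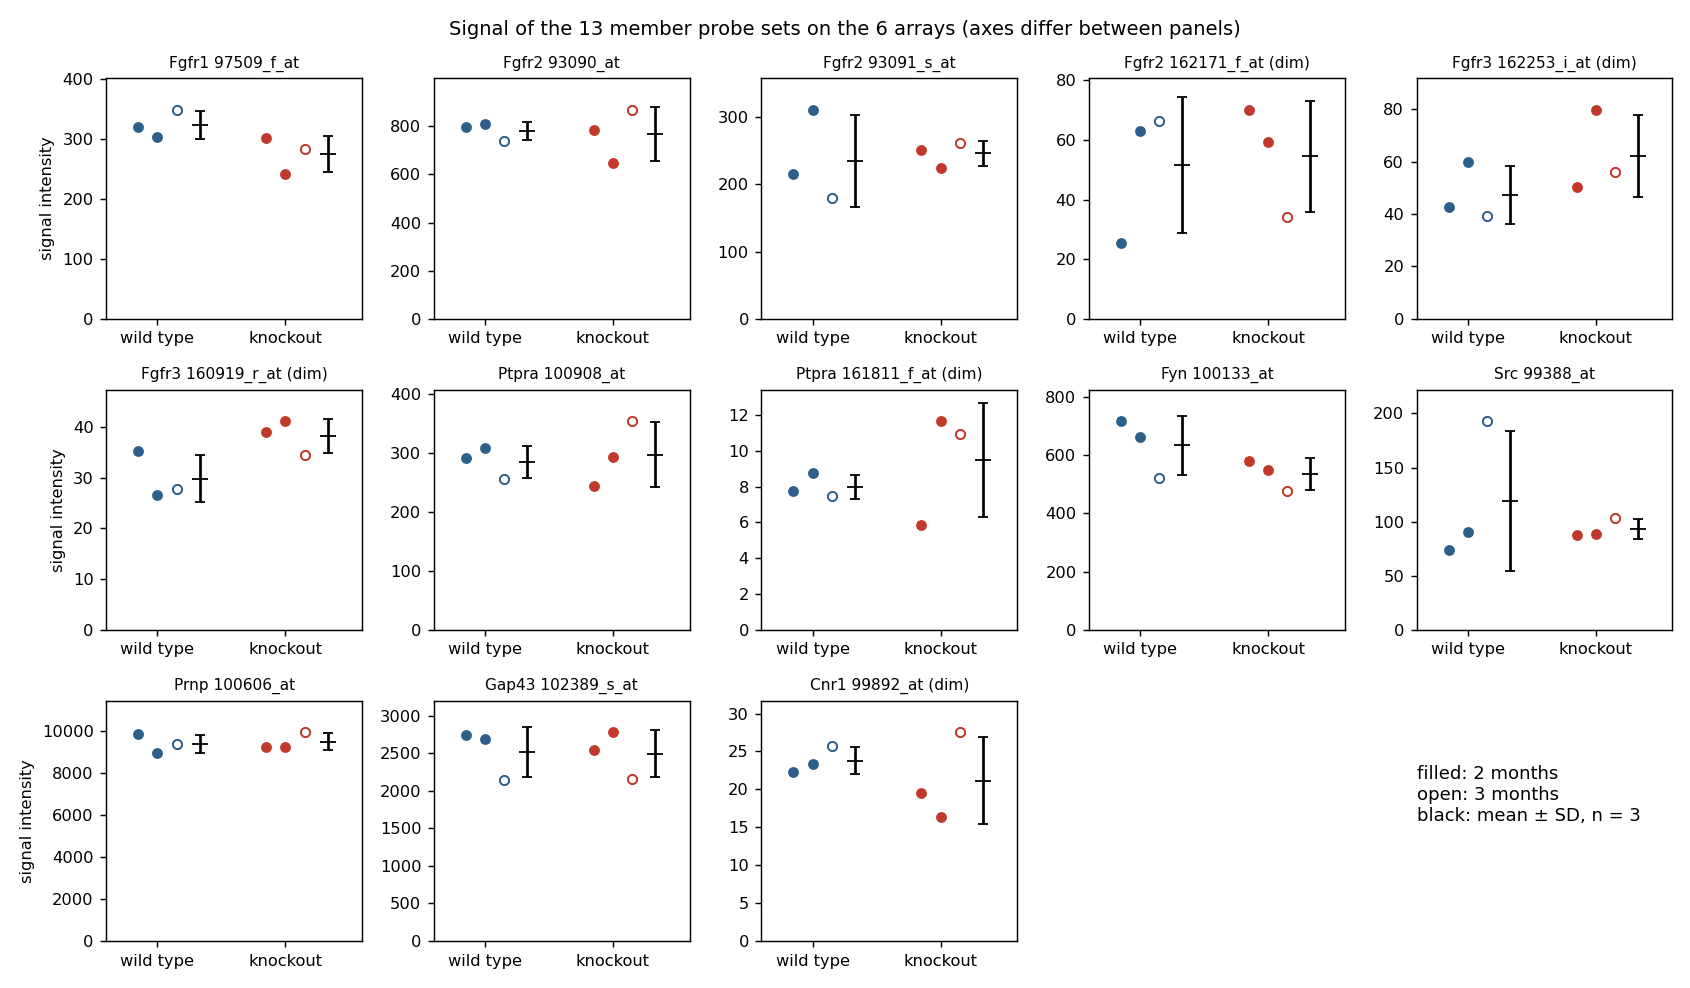
Signal intensity of each of the 13 member probe sets (vertical axes start at 0 and differ between panels) in wild-type and knockout brains, 1 point per animal, filled at 2 months and open at 3 months, with the mean ± SD of 3 animals in black. The groups overlap in every panel except Fgfr1, where the knockout points reach 301.0 and the wild-type points begin at 302.9.

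Among the receptors, Fgfr1 was the member whose groups did not overlap. Fgfr1 is the receptor tyrosine kinase most often described as NCAM's signalling partner in neurons. Its probe set, of a kind that can also detect related sequences, read 301.0, 241.3 and 282.7 in knockout replicates 1, 2 and 3 and 319.5, 302.9 and 348.7 in wild-type replicates 1, 2 and 3. All knockout values lay below all wild-type values, but the highest knockout signal, in replicate 1, was close to the lowest wild-type signal, in replicate 2. The means were 275.0 ± 30.6 (SD, n = 3) and 323.7 ± 23.2, and the log2 difference was -0.23 ± 0.11 (SE), with a 95% interval of -0.48 to 0.03 and an adjusted p of 0.743 by limma. Permuting the group labels exactly (two-sided) gave p = 0.1, and 3 animals a group cannot reach a smaller p. Without knockout replicate 2, the array with low cerebellar signal and the lowest Fgfr1 signal, the log2 difference was -0.14 ± 0.11 (adjusted p = 0.701 in limma).

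Fgfr2, a relative that carries signals of several fibroblast growth factors and is made in brain largely by glia, was measured by 3 probe sets. The brightest read 785.9, 648.1 and 869.4 in knockout against 796.6, 808.8 and 740.1 in wild-type replicates 1, 2 and 3. Both the lowest and the highest of these 6 signals came from knockout brains. The log2 difference was -0.03 ± 0.11 with a 95% interval of -0.28 to 0.21. A further probe set, of a less specific kind, read 251.6, 225.0 and 262.2 against 215.0, 311.4 and 179.5. Here the knockout values lay inside the wild-type range, and the log2 difference was 0.09 ± 0.18 (95% interval -0.31 to 0.50). The remaining Fgfr2 probe set was dim, at 34.0 to 70.1 in knockout against 25.4 to 66.3 in wild-type brains, and was not tested.

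Fgfr3, which in the adult brain is found mainly in astrocytes, had only dim probe sets, both of kinds with lower specificity or fewer probes. The brighter of the pair read 50.3, 79.8 and 56.2 in knockout against 42.5, 59.8 and 39.2 in wild-type replicates 1, 2 and 3. The other read 39.0, 41.2 and 34.6 against 35.2, 26.7 and 27.7. Knockout means were the higher ones at both, yet the groups overlapped, and both lay below the limit of 72.2 (on the signal scale) that was set for testing. Fgfr3 had a log2 difference of 0.30 and 0.25 by these probe sets. When the filter was removed, neither passed (adjusted p = 0.857 and 0.847 in limma).

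Ptpra encodes the receptor phosphatase that removes the inhibitory phosphate from Src family kinases and that binds NCAM. Its tested probe set read 244.9, 293.5 and 354.9 in knockout against 291.4, 308.2 and 256.0 in wild-type replicates 1, 2 and 3. The extremes of both directions were knockout brains, and the log2 difference was 0.05 ± 0.14 (95% interval -0.27 to 0.37). A second probe set of Ptpra was very dim, with signals from 5.83 to 11.7 over the 6 arrays.

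Fyn, the Src family kinase found with NCAM in rafts and also a regulator of myelination in oligodendrocytes, read 579.3, 549.3 and 474.8 in knockout against 716.8, 661.6 and 519.2 in wild-type replicates 1, 2 and 3. The groups overlapped only because the 3-month-old wild-type animal lay below both 2-month-old knockout animals. Within each age the knockout values were the lower ones. Means were 534.4 ± 53.8 and 632.6 ± 102 (SD, n = 3), the log2 difference was -0.23 ± 0.13 with a 95% interval of -0.52 to 0.06, and the adjusted p was 0.751 in limma. With age as a covariate, the same difference had a standard error of 0.08, an unadjusted p of 0.0209 and an adjusted p of 0.507 in limma, so Fyn did not pass in that fit either. No other member had an unadjusted p under 0.05 in that limma fit, and the share of all tested probe sets that did was not computed. The summed signal of the oligodendrocyte markers also lay lower in knockout brains, with lower means for 5 of 7 of them. The part of these markers in the Fyn values was not tested.

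Src, the founding member of the kinase family, was read by a probe set close to the limit for testing. Its signals were 87.5, 88.4 and 103.3 in knockout against 73.5, 90.8 and 193.1 in wild-type replicates 1, 2 and 3. The 3-month-old wild-type animal stood far above the other 5. The log2 difference of -0.21 ± 0.29 (95% interval -0.86 to 0.44) became 0.16 ± 0.19 without that animal (adjusted p = 0.968 in limma). Src had the widest interval of the tested members, and its residual standard deviation of 0.46 was at or above that of 97.0% of all tested probe sets.

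Prnp, the glycolipid-anchored prion protein that binds NCAM and draws it into rafts, was the most even member. It read 9226, 9233 and 9933 in knockout against 9824, 8929 and 9345 in wild-type replicates 1, 2 and 3. The means differed by less than the spread within either group, with a log2 difference of 0.02 ± 0.05. The 95% interval of -0.11 to 0.14 is the narrowest of the 8.

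Gap43, a growth cone protein phosphorylated by protein kinase C during neurite growth downstream of NCAM, read 2537, 2782 and 2162 in knockout against 2742, 2684 and 2138 in wild-type replicates 1, 2 and 3. In both groups the 3-month-old animal had the lowest signal, and the genotypes lay side by side at each age. The log2 difference between genotypes was -0.01 ± 0.12 (95% interval -0.28 to 0.25). Cnr1, the main cannabinoid receptor of neurons, had a dim probe set that read 19.6, 16.4 and 27.6 in knockout against 22.3, 23.3 and 25.7 in wild-type brains. These signals overlapped and were too low for the test.

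**Figure D2:**
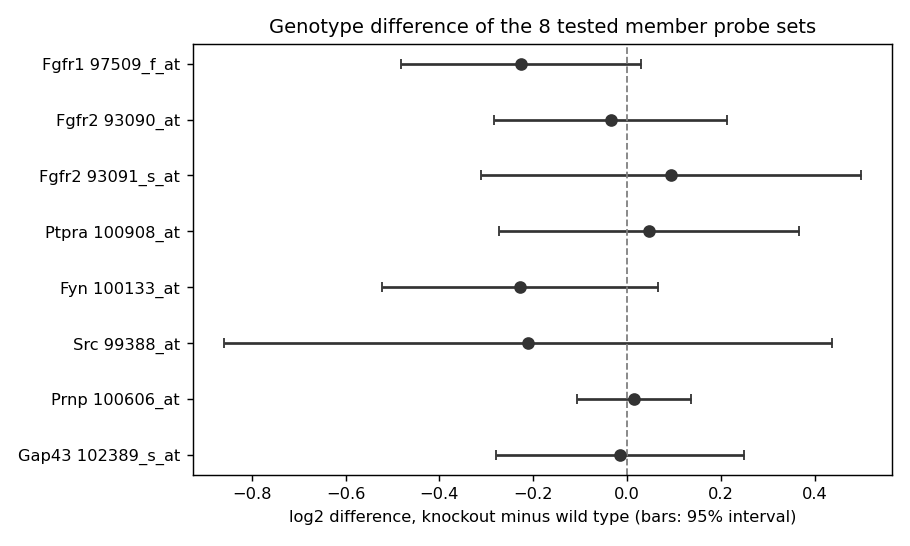
Log2 difference (knockout minus wild type) of the 8 tested member probe sets, with the 95% interval from limma as bars. Every interval includes 0, from the narrow one of Prnp (-0.11 to 0.14) to the wide one of Src (-0.86 to 0.44).

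The fitted difference by age was larger in size than that by genotype for 7 of the 8 tested members, all but Fgfr1, although none passed the test. The share over all tested probe sets was not computed, so this count does not set the members apart. For Prnp both differences were small, at 0.05 by age and 0.02 by genotype. In a fit with both factors, 3-month-old animals (n = 2, 1 of each genotype) were set against 2-month-old animals (n = 4). Of the 8 members 0 passed after adjustment, where 0.0268% of all tested probe sets passed. At an unadjusted p under 0.05 in limma 2 members lay lower at 3 months, against 6.09% of all tested probe sets, and 1 lay higher, against 6.31%. Gap43 had signals of 2138 and 2162 at 3 months and of 2537 to 2782 at 2 months, with no overlap, although the share of all tested probe sets without overlap was not computed. The log2 difference of Gap43 (3 minus 2 months) was -0.32 ± 0.06, with an unadjusted p of 0.000879 and an adjusted p of 0.23 in limma. Fyn had signals of 474.8 and 519.2 at 3 months and of 549.3 to 716.8 at 2 months. Its log2 difference for age was -0.32 ± 0.08 (unadjusted p = 0.00551, adjusted p = 0.264 in limma). Src read 103.3 and 193.1 at 3 months against 73.5 to 90.8 at 2 months, a log2 difference of 0.65 ± 0.22 (unadjusted p = 0.0188, adjusted p = 0.311 in limma), which was 0.20 ± 0.23 without the 3-month-old wild-type animal. For Gap43 and Fyn both 3-month signals lay below all 2-month signals, so leaving out 1 array could not reverse the sign of the age difference. Its size then ran from -0.35 to -0.29 for Gap43 and from -0.40 to -0.24 for Fyn. Without either 3-month-old animal the age difference rests on 1 animal of that age. The sources used here do not state whether the arrays of the older mice were prepared separately, so age and preparation cannot be told apart. Oligodendrocyte markers also lay lower at 3 months (median log2 difference -0.15, with 3 of 7 at an unadjusted p under 0.05), and their part in the Fyn values was not tested.

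**Figure D3:**
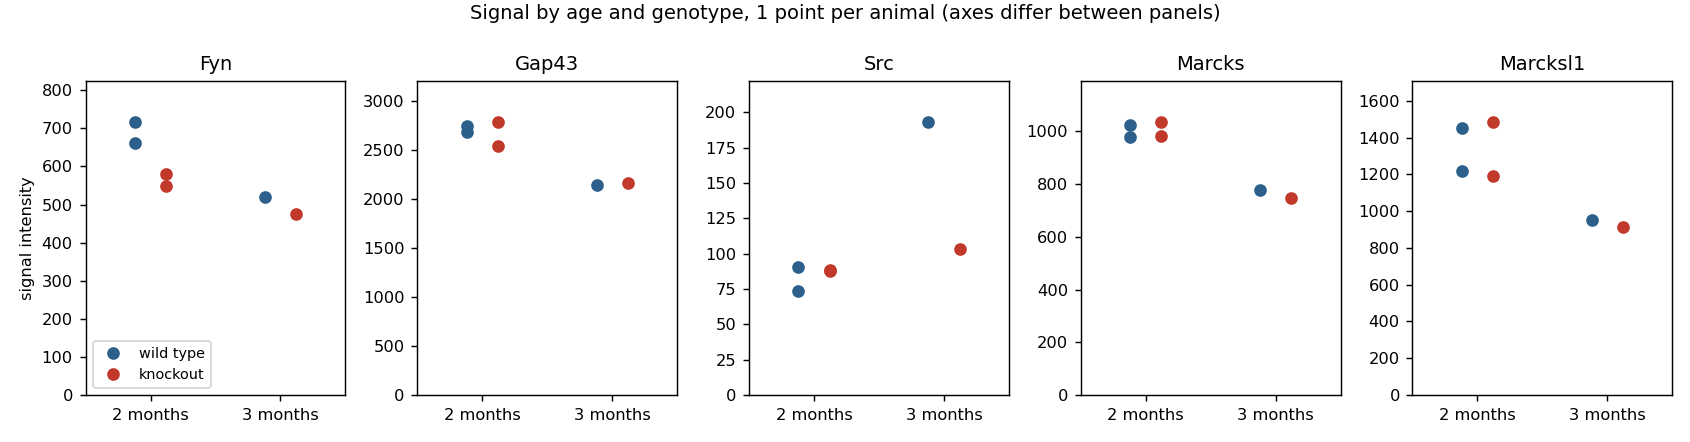
Signal intensity at 2 and 3 months of age for Fyn, Gap43, Src and the protein kinase C substrates Marcks and Marcksl1, 1 point per animal, coloured by genotype (axes start at 0 and differ between panels). The 3-month-old animals lie below all 2-month-old animals for Fyn, Gap43, Marcks and Marcksl1 and above them for Src, and the knockout points of Fyn lie below the wild-type points at each age. Marcks and Marcksl1 were chosen after their values were seen. The share of all tested probe sets separated by age in this way was not computed.

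The genotype difference itself was also compared between ages, in a fit with 2 residual degrees of freedom. After adjustment 0 of 8 members passed, against 0.0268% of all tested probe sets, and 2 had an unadjusted p under 0.05, against 5.70%. Ptpra had a genotype difference of -0.15 at 2 months and 0.45 at 3 months on the log2 scale (difference of differences 0.60 ± 0.22, unadjusted p = 0.0335, adjusted p = 0.824 in limma). Src had 0.09 at 2 months and -0.81 at 3 months (-0.90 ± 0.31, unadjusted p = 0.0252, adjusted p = 0.823 in limma). Each 3-month value rests on 1 knockout and 1 wild-type animal. Fyn had -0.28 and -0.13, and Fgfr1 -0.20 and -0.29, so the sign was the same at both ages.

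The other genes of these pathways were read from 8 lists of 133 genes, of which 103 had a probe set of their own and 77 were tested, each by its brightest probe set. Of these 0 passed between genotypes. By limma, 3 genes lay above and 3 below wild type at an unadjusted p under 0.05, which is 6 of 77 against the 3.26% and 3.68% of all tested probe sets. The median log2 difference over the 77 genes was -0.01.

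Fibroblast growth factors and the list of their receptor family and adaptors gave 0 genes at an unadjusted p under 0.05 in either direction. Of 3 tested ligands, Fgf9 had a log2 difference of 0.10 ± 0.16 and Fgf4 0.02 ± 0.11. Of 9 genes in the receptor family and adaptor list, which also held Kl and Cdh2, 6 had higher means (median 0.14). Over all 7453 tested probe sets 3753 had higher means. Dusp6, a phosphatase induced by this pathway that switches off ERK kinases, read 480.0, 672.1 and 682.3 in knockout against 366.0, 386.0 and 651.5 in wild-type replicates 1, 2 and 3. Both groups spanned a wide range, and the log2 difference was 0.41 ± 0.22 (limma, adjusted p = 0.743). Gab1, a docking protein, had -0.17 ± 0.09 by its brightest probe set and 0.33 ± 0.14 by another, so its probe sets disagreed in sign and neither passed. Plcg1, the phospholipase that fibroblast growth factor receptors activate, read 257.1, 208.7 and 237.9 against 203.3, 191.4 and 207.7. Its groups were barely separated, and its log2 difference was 0.20 ± 0.11.

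Among regulators of Src family kinases, 1 of 9 tested genes was above and 0 below wild type at an unadjusted p under 0.05 (median log2 difference 0.04). Csk, the kinase that adds the inhibitory phosphate to Fyn and Src, read 227.1, 284.0 and 272.9 in knockout against 235.2, 192.2 and 191.3 in wild-type brains. Knockout replicate 1 fell inside the wild-type range, and the log2 difference was 0.32 ± 0.13 (adjusted p = 0.719 in limma). Ptpn1, a phosphatase that can remove the same phosphate, had 0.31 ± 0.14 (adjusted p = 0.724 in limma).

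Of 12 focal adhesion genes 1 lay higher and 1 lower at that threshold (median -0.02). Ptk2b, the closest relative of the unmeasured focal adhesion kinase and abundant in forebrain neurons, read 1235, 1349 and 990.3 in knockout against 949.1, 1027 and 925.2 in wild-type brains. The 3-month-old knockout animal lay inside the wild-type range, and the log2 difference was 0.29 ± 0.11 (adjusted p = 0.719 in limma). Knockout replicate 2, which had the highest Ptk2b signal, was also the array with low cerebellar signal, and its part in this value was not tested. Rac1, a small GTPase of the actin cytoskeleton, had -0.14 ± 0.06 (adjusted p = 0.719 in limma).

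Of 13 receptor-type phosphatases 0 were above and 1 was below wild type at an unadjusted p under 0.05 (median 0.02). This was Ptpre, the closest relative of Ptpra, which read 544.7, 602.1 and 576.4 in knockout against 652.4, 644.9 and 661.4 in wild-type brains without overlap. Its log2 difference was -0.18 ± 0.08 (adjusted p = 0.719 in limma), whereas that of Ptpra was 0.05 ± 0.14. Ptpru, another member, had -0.25 ± 0.11.

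Raft and prion-binding proteins had 9 of 11 lower means (median -0.05), where 3700 of all 7453 tested probe sets had lower means, with 1 lower and 0 higher at an unadjusted p under 0.05. Flot1 and Flot2 encode flotillins, which form raft microdomains in the inner membrane leaflet. Flot1 read 997.4, 896.0 and 865.0 in knockout against 1123, 1030 and 1149 in wild-type brains, with no overlap and a log2 difference of -0.26 ± 0.08 (unadjusted p = 0.0131, adjusted p = 0.624 in limma). Flot2 read 428.4, 538.6 and 521.8 against 638.0, 533.8 and 596.4, and its log2 difference was -0.24 ± 0.11 (limma, adjusted p = 0.724). Flot1 had the lowest p of all 77 pathway genes, but neither flotillin passed and the groups of Flot2 overlapped. Both were named for having the lowest p of their list, so their like differences are no separate support.

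Growth cone and protein kinase C genes, the group to which Gap43 belongs, had a median genotype difference of -0.01 over 13 genes, with 1 gene higher and 0 genes lower at an unadjusted p under 0.05. Calm2, a calmodulin gene, had 0.46 ± 0.18 and Dpysl2, a collapsin response mediator, 0.24 ± 0.14. By age, 2 of these 13 genes lay below their 2-month level at an unadjusted p under 0.05 by limma. Over all 77 pathway genes 6 lay below and 5 above it, against 6.09% and 6.31% of all tested probe sets, and the focal adhesion and raft lists also had 2 below each. Marcks, like Gap43 a membrane-bound substrate of protein kinase C, read 748.4 and 779.3 at 3 months and 978.1 to 1036 at 2 months. Its log2 difference for age was -0.39 ± 0.07 (unadjusted p = 0.000585, adjusted p = 0.229 in limma). Marcksl1, its shorter relative, read 916.0 and 950.3 against 1190 to 1486, with -0.50 ± 0.11 (adjusted p = 0.243 in limma). Basp1, another abundant substrate of this kind, had -0.16 ± 0.10, so not every gene of the group showed the separation. Genotype differences of Marcks and Marcksl1 were -0.01 ± 0.14 and -0.02 ± 0.19.

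The tested genes of the endocannabinoid list were the enzymes Faah, Mgll and Daglb and the G protein subunits Gnao1, Gnai1, Gnai2 and Gnai3. Of these, 0 of 7 had an unadjusted p under 0.05 between genotypes in limma (median -0.01). Gnao1, a G protein subunit coupled to Cnr1, had 0.05 ± 0.06 by its brightest probe set and from -0.21 to 0.11 by its others. Faah, which degrades the cannabinoid anandamide, had 0.09 ± 0.10.

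**Figure D4:**
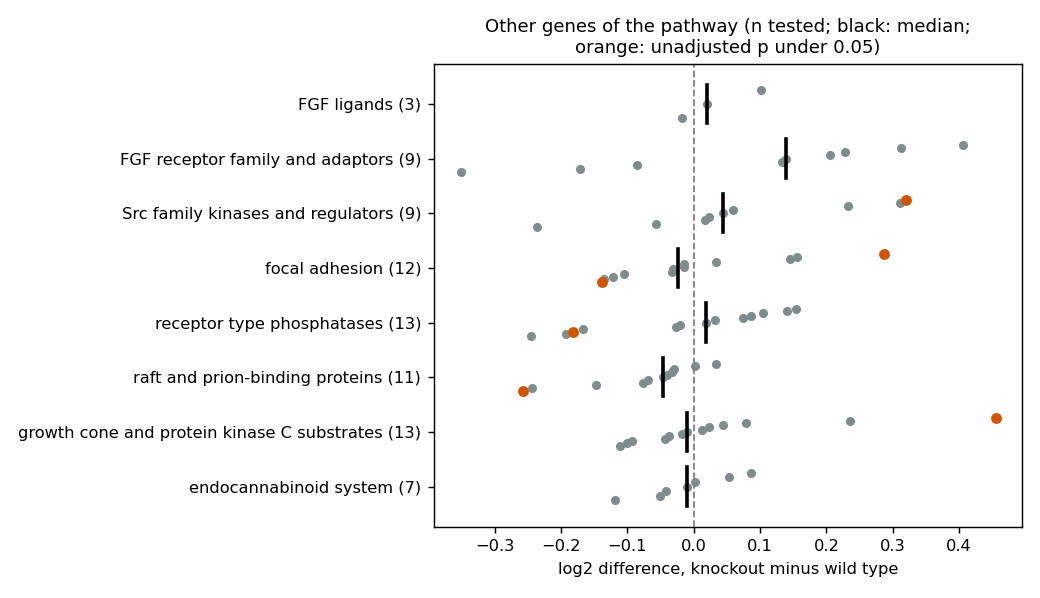
Log2 difference (knockout minus wild type) of 77 tested genes in 8 pathway lists, 1 point per gene, with the list median as a black bar and the 6 genes at an unadjusted p under 0.05 in orange. Medians lie between -0.05 and 0.14, and no gene passed after adjustment.

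Profiles over the 6 arrays were also compared, as a description. Among 6735 other single-gene probe sets, 91 had a Pearson correlation of at least 0.9 with Fgfr1, led by Chd1 (0.992), Tpt1 (0.988) and Pagr1a (0.987). For Fyn there were 31, led by Dlat (0.987), Dguok (0.976) and Hnrnpdl (0.974). These points share only 6 arrays, including the genotype, age and tissue differences given above, and no other member was among these 6 genes.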

How the data were processed

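Total RNA of 6 brains was hybridised to Affymetrix arrays as biotinylated cRNA. The submitters' processing notes name GCOS 1.4, and the sources used here do not state the signal algorithm. The deposited signal intensities are linear and were, from the values, scaled by the authors to 1 trimmed mean per array. The 66 control entries were removed. Values were taken as log2(signal + 16), and probe sets with a mean log2 at or above the 40th percentile (6.46) were tested.

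Knockout was compared with wild type in limma 3.58.1 under R 4.3.3 (intensity trend, two-sided, no covariate), with Benjamini-Hochberg adjustment over all 7453 probe sets and a threshold of 0.05. Age and its interaction with genotype used the same procedure. Only the genotype comparison was checked on simulated data, with independent normal noise and no age or array effect. Log2 scale differences of dim genes are understated by the added 16. Gene names came from the platform annotation, in which 10833 probe sets had 1 symbol, 396 several and 1193 none. Animals are described as separate individuals.

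The members and lists were chosen with earlier results of these data known. The naming rule covers all members, Ncam1, the 2 genes of lowest p per list, and 3 genes of most similar profile to Fgfr1 and to Fyn. Plcg1, Marcks, Marcksl1 and Basp1 were named after their values were seen. Alternatives were a covariate for age, a replicate block, the younger animals only, leaving out 1 array at a time or both unusual knockout arrays, quantile and median scaling, pseudocounts of 1 and 64, no filter or a 60th percentile filter, no trend, and array weights. Leaving arrays out of the age comparison was chosen after seeing the data. Same-numbered animals correlated at 0.01, 0.15 and 0.20 in their deviations from the group means, and differently numbered ones at -0.22 to 0.08. The animals numbered 3 also share their age. The main fit did not take the numbers as pairs, and the replicate block did. Figures were drawn with matplotlib 3.10.9.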

Additional observations from a re-analysis of the deposited data

How the results depend on the processing

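The 18 alternatives include the fit left with 1 knockout array, for which only log2 differences are given. Under the others 0 members and 0 of the other pathway genes were called between genotypes. The lowest adjusted p values for members ran from 0.499 to 0.952 in limma. The count of called members was likewise 0 for age and for the difference between ages in each alternative run. Fgfr1 (-0.29 to -0.14) and Fyn (-0.39 to -0.13) had log2 differences below 0 under all 18 alternatives. Every other tested member changed sign in at least 2 of its alternatives. The replicate block, the age covariate, the filter settings and the fit without trend cannot change a difference itself. For Fgfr1, whose groups did not overlap, leaving out arrays or changing the pseudocount could not reverse the sign either. The count of 18 is therefore no measure of support. With the replicate block the Fyn difference was -0.23 ± 0.08 (adjusted p = 0.566 in limma) and the Fgfr1 difference -0.23 ± 0.10 (adjusted p = 0.588), and the block changed no call of a member. The median member difference was -0.13 in 2-month-old animals alone and between -0.10 and 0.014 with 1 array left out, where -0.10 came without knockout replicate 3. Of all probe sets 2 were called, against 1 without the filter, with quantile or median scaling or without the intensity trend. The count was 3 in 2-month-old animals alone, 4 with array weights, and 1 to 2 with 1 array left out. Signal near background limits Fgfr3, Cnr1 and the third Fgfr2 probe set.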
